A study of Homo sapiens with 4 samples.

Results

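The genes described here are 10 human alpha- and beta-tubulin genes whose mRNAs are known to be destabilised by an excess of soluble tubulin, a feedback called tubulin autoregulation. They were taken by name, and no measured value entered the rule, although earlier results of these data were known when the genes were chosen: the alpha-tubulin genes TUBA1A, TUBA1B and TUBA1C, and the beta-tubulin genes TUBB, TUBB2A, TUBB2B, TUBB3, TUBB4A, TUBB4B and TUBB6. All 10 were found among the 27011 genes of the count table, and all 10 were among the 10978 genes tested. RNA-Seq had been performed on HEK293T cells, a human embryonic kidney line, that were either unedited (WT) or carried a Cas9-induced frameshift in exon 8 of HELZ (HELZ-null), with 2 libraries of each line. None of the cells received any treatment, and they were harvested the day after plating. HELZ is a putative helicase that binds the CCR4-NOT deadenylase complex, and the comparison asks how mRNA levels differ in its absence. Total RNA was converted to libraries with a TruSeq kit. The HELZ-null cells stand for a single edited line, so that differences between this line and its parent other than HELZ cannot be told apart from the loss of HELZ, and the tests cover only the spread between libraries of the same line.

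The libraries held between 41745401 and 70464140 counts, and 3 counts corresponded to between 0.043 and 0.073 CPM. These totals are well above the numbers of mapped reads given in the methods of the study, as they would be if both mates of a pair had been counted singly, so counts and depths printed here may overstate the number of fragments. With all counts divided by 2 the calls among the 10 genes were kept. CPM is the count of a gene scaled to a common library total, so it is relative to the other RNA of the library, and fewer cells expressing a gene cannot be told apart from less of its RNA per cell. HELZ mRNA itself stood at 99.8 and 104 CPM in WT and at 36.98 and 37.9 CPM in HELZ-null, a log2 fold change (log2FC) of -1.44 ± 0.042 (SE, n = 2 libraries per group, FDR = 2.13e-27). The cells expressed VIM, KRT8, KRT18, NEFL, NEFM, CDH2 and EYA1, markers of HEK293 cells. Of these 7, 4 were lower in HELZ-null (57.1%, against 15.5% of all tested genes). A further 1 was higher (14.3%, against 13.9%) and 2 were not called. The largest changes were those of KRT8, with a log2FC of -0.98 (FDR = 7.13e-15), NEFM, with 0.89 (FDR = 1.26e-25), and EYA1, with -0.55 (FDR = 2.71e-07). Each exceeded in size the log2FC of every one of the 10 tubulin genes. DESeq2 kept these calls. Over all alternative settings the log2FC ranged from -1.05 to -0.92 for KRT8, 0.86 to 0.92 for NEFM and -0.60 to -0.50 for EYA1. The lower level of KRT18 was not called with DESeq2, with library size alone and without WT replicate 1 or either HELZ-null library, and that of VIM not without HELZ-null replicate 2. The HEK293 markers PAX2 and LHX1 were below the level at which genes were tested. PAX2 was at 5.19 and 5.37 CPM in WT and at 7.07 and 6.48 CPM in HELZ-null, and LHX1 at 2.98 and 2.68 CPM in WT and at 6.58 and 4.89 CPM in HELZ-null. With the looser filter of edgeR, LHX1 was higher in HELZ-null with a log2FC of 0.98 (FDR = 4.98e-06). The part of these marker differences in the tubulin results was not tested. Markers of other lineages (PTPRC, HBG1, ALB, PECAM1, MYOD1 and GFAP) were at 0 or at no more than 1.31 CPM in any library.

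Alpha- and beta-tubulin pair into the dimers from which microtubules polymerise, and mammalian genomes encode each of them in several isotypes with tissue-specific expression. When free dimers accumulate, the ribosome-associated factor TTC5 recognises the first residues of a nascent tubulin chain as it leaves the ribosome. TTC5 then acts with the adaptor SCAPER, which brings the CCR4-NOT complex to the translated mRNA, and the mRNA is deadenylated and degraded. The recognised residues are Met-Arg-Glu-Cys in alpha-tubulin and Met-Arg-Glu-Ile in beta-tubulin, so that the signal lies in the first 12 bases of the coding sequence.

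These bases are printed for the 10 genes and for 2 relatives, since they are what the genes have in common for the feedback. The first 30 bases of the coding sequence are given 5′ to 3′ from the GENCODE v44lift37 transcripts on GRCh37, and the capitals mark the 4 codons of the recognised residues.
TUBA1A: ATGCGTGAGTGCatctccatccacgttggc
TUBA1B: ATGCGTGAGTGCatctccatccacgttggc
TUBA1C: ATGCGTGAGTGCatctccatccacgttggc
TUBB: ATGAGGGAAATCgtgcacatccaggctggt
TUBB2A: ATGCGCGAGATCgtgcacatccaggcgggc
TUBB2B: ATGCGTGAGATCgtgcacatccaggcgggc
TUBB3: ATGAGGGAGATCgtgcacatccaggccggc
TUBB4A: ATGCGGGAGATCgtgcacctgcaggccggc
TUBB4B: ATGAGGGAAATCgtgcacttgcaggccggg
TUBB6: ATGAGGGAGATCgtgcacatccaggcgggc
TUBA4A: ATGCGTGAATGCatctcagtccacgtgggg
TUBG1: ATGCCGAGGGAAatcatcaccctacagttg

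The 3 alpha-tubulin genes had all 30 bases in common, whereas the 7 beta-tubulin genes spelled the same residues with 5 different sets of codons. TUBB and TUBB4B used one set, TUBB3 and TUBB6 another, and TUBB2A, TUBB2B and TUBB4A each had their own. TUBA4A, an alpha-tubulin outside the 10 genes, codes for the same residues as the other alpha-tubulins with a different glutamate codon. TUBG1, which encodes the gamma-tubulin of the microtubule nucleation complex, starts with a proline codon after the initiator methionine and does not code for the signal. Of 19656 protein-coding genes with a coding sequence that starts at ATG, 10 code for Met-Arg-Glu-Ile and 9 for Met-Arg-Glu-Cys, and all 19 are tubulin genes, 10 of them those listed here. All 10 genes have 4 exons in the reference transcript, and the start codon lies in exon 1. The first exon holds only 3 coding bases in the alpha-tubulin genes, the ATG itself, and 57 coding bases in the beta-tubulin genes, so that the signal is split by the first intron in the former and is whole within exon 1 in the latter.

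The genes lie in 7 places of the genome, given here in GRCh37. The alpha-tubulin genes share a cluster on chromosome 12, with TUBA1B at chr12:49521565-49525180 on the minus strand, TUBA1A at chr12:49578469-49582863 on the minus strand and TUBA1C at chr12:49582519-49668383 on the plus strand. TUBB2A (chr6:3153731-3157778) and TUBB2B (chr6:3223558-3231964) lie side by side on the minus strand of chromosome 6, whereas TUBB (chr6:30685212-30693315, plus strand) lies farther along the same chromosome. TUBB3 (chr16:89987800-90005169, plus strand), TUBB4A (chr19:6494330-6502859, minus strand), TUBB4B (chr9:140135739-140138159, plus strand) and TUBB6 (chr18:12307668-12344319, plus strand) stand alone.

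The 10 mRNAs covered a wide range of levels in WT cells. In mean FPKM, here the CPM divided by the deposited gene width in kilobases so that genes of different length can be compared, the highest, TUBA1B, stood 111 times above the lowest, TUBB3. TUBA1B was at 1092 and 1026 FPKM in the 2 WT libraries and ranked 56th of the 10978 tested genes. TUBB, the main beta-tubulin of dividing cells, was at 799 and 773 FPKM and ranked 76th. TUBB4B, also broadly expressed, was at 359 and 355 FPKM, and TUBA1C was at 267 and 259.7 FPKM. These 4 genes formed the upper tier of the tubulin mRNAs. The remaining 6 stood between 9.23 and 43.9 FPKM in the WT libraries, in the order TUBA1A, TUBB6, TUBB2B, TUBB2A, TUBB4A and TUBB3. Several of these, TUBA1A, TUBB2A, TUBB2B, TUBB3 and TUBB4A, are isotypes known for high expression in neurons. The order was the same in HELZ-null, and in neither group did the 2 libraries of a gene overlap those of the next gene in the order. The smallest step in WT was that from TUBA1A to TUBB6, with a ratio of 1.15. This step depends on the deposited widths, 2476 bases for TUBA1A and 3309 for TUBB6, whose reference transcripts have 1672 and 1879 bases. In CPM, which is not divided by width, TUBB6 stood above TUBA1A in WT, at a mean of 126 against 109. In HELZ-null the smallest step was that from TUBB2B to TUBB2A, with a ratio of 1.18.

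Of the 10 tubulin mRNAs, 4 rose in HELZ-null, 1 fell and 5 were not called at the threshold of FDR < 0.005 (edgeR quasi-likelihood test, adjusted over all tested genes). For comparison, 13.9% of all tested genes were called higher and 15.5% were called lower. The 4 genes that rose were TUBA1A, TUBB2A, TUBB2B and TUBB4A, all from the lower tier of the levels, and the gene that fell was TUBA1B, the most abundant. The changes were small, at most 25.1% up and 10.6% down. The median log2FC of the 10 genes was 0.031, against -0.00091 over all tested genes, and the median size of their log2FC was 0.12, against 0.11 over all tested genes. In 8 of the 10 genes the WT and HELZ-null libraries did not overlap, whereas this was so in 70.6% of all tested genes.

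**Figure D1:**
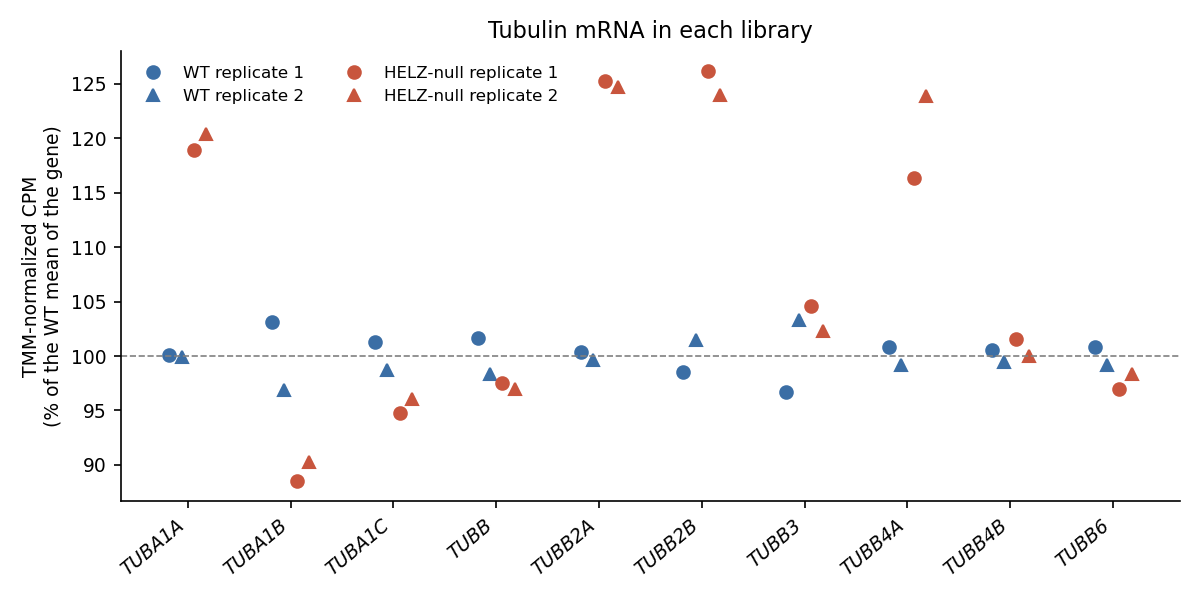
TMM-normalized CPM of each tubulin gene in each of the 4 libraries, drawn as a percentage of the WT mean of that gene (vertical axis, not starting at 0). Blue points are WT and red points are HELZ-null; circles are replicate 1 and triangles replicate 2. The HELZ-null points of TUBA1A, TUBB2A, TUBB2B and TUBB4A stand well above both WT points, those of TUBA1B stand below, and those of TUBB3 and TUBB4B lie among or next to them.

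TUBA1A encodes an alpha-tubulin that is prominent in the developing brain. Its mRNA was at 109 and 109 CPM in the WT libraries and at 129 and 131 CPM in HELZ-null. Both HELZ-null libraries were higher than both WT libraries, and the difference between the groups was many times the difference within them. The log2FC was 0.26 ± 0.034 (SE, n = 2 per group, FDR = 3.84e-08), a rise of 19.7%, and 92.2% of the tested genes had a lower log2FC.

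TUBA1B, which encodes the most abundant alpha-tubulin of these cells, was the only one of the 10 to fall. It was at 1912 and 1796 CPM in WT and at 1641 and 1673 CPM in HELZ-null. The groups did not overlap, although the WT libraries stood further apart from each other than those of any other of the 10 genes in CPM. The log2FC was -0.16 ± 0.027 (SE, n = 2 per group, FDR = 6.33e-06), so that the level fell by 10.6%. Without HELZ-null replicate 1 the log2FC of TUBA1B was -0.15. Without WT replicate 1 it was -0.12, and without WT replicate 2 it was -0.20. With a single WT library left, the spread in such a fit comes from the HELZ-null pair and the lone library is assumed to vary like it. The same holds, with the groups exchanged, wherever a library was left out.

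TUBA1C encodes another alpha-tubulin close to TUBA1B in sequence. It was at 565 and 550.0 CPM in WT and at 528 and 535 CPM in HELZ-null. The HELZ-null libraries were both below the WT libraries, but the gap was about as wide as that between the 2 WT libraries. The log2FC of -0.068 (95% interval -0.12 to -0.013, FDR = 0.040) was not called. With WT replicate 2 left out it was -0.085 with an FDR of 0.0042, which passed the threshold.

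The alpha-tubulin genes are hard to separate by sequence. The coding sequences of TUBA1A and TUBA1B were 97.2% identical, those of TUBA1B and TUBA1C 97.3% and those of TUBA1A and TUBA1C 96.3%. Of the 50-base stretches in the reference transcript, 62.7% in TUBA1B, 37.9% in TUBA1A and 21.3% in TUBA1C occurred letter for letter in transcripts of other genes. How the counting treated reads that map to more than one place is not given in the sources used here, so the values of the 3 genes are uncertain to that extent. TUBA1A moved in the opposite direction to TUBA1B, with which it shared the most stretches. Its level relative to TUBA1B was 0.040 and 0.043 in WT and 0.056 and 0.055 in HELZ-null, as a ratio of FPKM. The exons of TUBA1A and TUBA1C overlap by 345 bases on opposite strands, and those of TUBA1B overlap an antisense RNA, TUBA1B-AS1, by 1571 bases. The use of strand in the counting is not given in the sources used here, so that reads of such pairs may not have been told apart.

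Among the beta-tubulin genes, TUBB2A and TUBB2B encode nearly identical proteins that are abundant in the brain. TUBB2A was at 35.6 and 35.3 CPM in WT and at 44.4 and 44.2 CPM in HELZ-null. TUBB2B was at 47.6 and 49.0 CPM in WT and at 60.9 and 59.8 CPM in HELZ-null. In both genes the 2 HELZ-null libraries lay clearly above the WT libraries and close to each other. The log2FC was 0.32 ± 0.051 for TUBB2A (SE, n = 2 per group, FDR = 1.80e-06) and 0.32 ± 0.045 for TUBB2B (FDR = 1.62e-07), rises of 24.9% and 25.1%. These were the largest increases among the 10 genes, and 94.9% of the tested genes had a log2FC lower than that of TUBB2A, the smaller of both. The pair cannot be counted as independent observations, because the coding sequences were 98.2% identical and 64.6% of the 50-base stretches of TUBB2A and 54.9% of those of TUBB2B occurred in other genes, mostly in the partner. The ratio of TUBB2A to TUBB2B, in FPKM, lay between 0.83 and 0.86 in all 4 libraries.

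TUBB4A, the beta-tubulin known from brain and oligodendrocytes, also rose. It was at 46.1 and 45.3 CPM in WT and at 53.2 and 56.6 CPM in HELZ-null. Both HELZ-null libraries were higher than both WT libraries, with a wider gap between the HELZ-null libraries than in TUBB2A or TUBB2B. The log2FC was 0.27 ± 0.047 (SE, n = 2 per group, FDR = 1.24e-05), a rise of 20.3%. Leaving out single libraries gave values between 0.22 and 0.31. In contrast to the TUBB2 pair, only 6.73% of the 50-base stretches of TUBB4A occurred elsewhere, and none of its 100-base stretches did. Its exons overlap those of antisense RNAs, however, by 520 and by 296 bases, and reads of these overlaps may not have been told apart. The neighbours of TUBB4A on chromosome 19 also tended to be higher in HELZ-null. Of the 20 nearest tested genes, 10 on each side, 15 had a log2FC above 0 and the median was 0.13, and the part of this in the rise of TUBB4A was not tested.

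TUBB3, the beta-tubulin used as a neuronal marker, was the lowest of the 10 in level and did not pass the test. It was at 18.5 and 19.8 CPM in WT and at 20.01 and 19.6 CPM in HELZ-null. The groups overlapped. The log2FC of 0.051 had a 95% interval of -0.091 to 0.19 (FDR = 0.59), so a change of the size seen in TUBA1A or TUBB2A lay outside the interval. The log2FC was 0.000054 without WT replicate 1 and 0.097 without WT replicate 2. An annotated read-through gene shares 1584 exonic bases with TUBB3 on the same strand, and was not in the count table by its identifier.

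The abundant beta-tubulins TUBB and TUBB4B were not called. TUBB was at 2490.1 and 2411 CPM in WT and at 2389 and 2375 CPM in HELZ-null. The HELZ-null libraries were the lower ones, by less than the gap between the WT libraries. The log2FC was -0.041 with a 95% interval of -0.093 to 0.011 (FDR = 0.20). The value depended on single libraries, at -0.018 without WT replicate 1 and -0.062 without WT replicate 2, where the FDR was 0.0066. Of its 50-base stretches, 19.3% occurred in other genes, mainly in the pseudogene TUBBP1.

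TUBB4B was at 571 and 564 CPM in WT and at 576 and 568 CPM in HELZ-null, with overlapping groups. Its log2FC was 0.011, with a 95% interval of -0.044 to 0.066 (FDR = 0.77), and values between 0.000020 and 0.022 when single libraries were left out. TUBB6, a minor and divergent beta-tubulin, was at 128 and 125 CPM in WT and at 123 and 124 CPM in HELZ-null. The HELZ-null libraries of TUBB6 were slightly below both WT libraries, and its log2FC was -0.034 with a 95% interval of -0.10 to 0.034 (FDR = 0.43). TUBB6 was the best separated of the 10 by sequence, with 1.09% of its 50-base stretches found elsewhere, but 837 bases of its exons overlap those of AFG3L2 on the other strand. AFG3L2 had a log2FC of 0.0081 (FDR = 0.87). For all 5 genes that were not called, the 95% intervals of the log2FC lay between -0.12 and 0.19. The point estimates of the 4 genes that rose, 0.26 to 0.32, were outside every one of these intervals, although the difference between the genes was not tested.

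**Figure D2:**
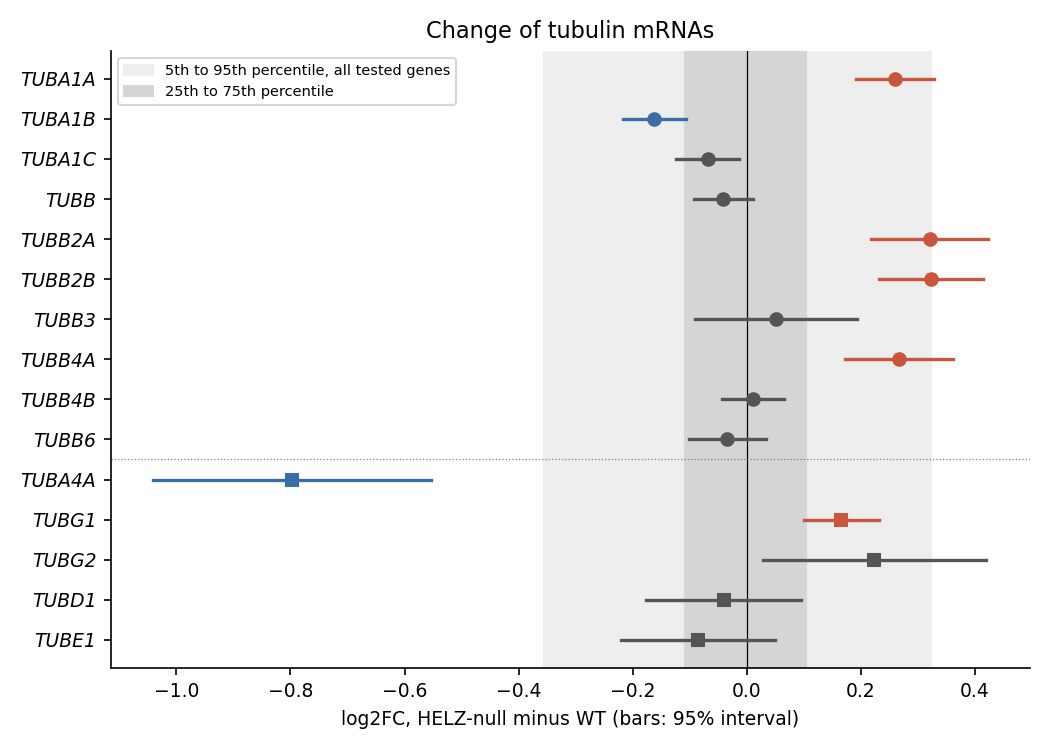
The log2FC of HELZ-null relative to WT (horizontal axis) for the 10 tubulin genes (circles) and for 5 other tubulin genes (squares, below the dotted line), with bars for the 95% interval. Red marks genes called higher, blue genes called lower and dark grey genes not called at FDR < 0.005; the grey bands hold the middle of the log2FC of all tested genes. TUBB2A and TUBB2B reach the upper edge of the wide band, and TUBA4A lies far outside it.

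The genes that rose did not share a start sequence that set them apart. TUBA1A, which rose, TUBA1B, which fell, and TUBA1C, which was not called, have identical first 30 coding bases. Among the beta-tubulins, the 3 that rose each used a codon for arginine that starts with CG, and the 4 that were not called used AGG. The TUBB2 genes and TUBB4A differ from one another in that codon, which is CGC, CGT and CGG, and CGT is also the codon of all 3 alpha-tubulin genes. This was seen after the values were known, in 7 genes of which 2 share most of their sequence, and was not tested.

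Level and change went in opposite directions among the 10 genes. Spearman's rho between mean FPKM in WT and log2FC was -0.73 across the 10 genes, against -0.11 across all 10978 tested genes. Both values are across genes, which are not independent replicates, and the level and the log2FC were taken from the same WT libraries. Of the 4 genes of the upper tier, none rose, and of the 6 genes of the lower tier, 4 rose and TUBB3 and TUBB6 were not called.

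**Figure D3:**
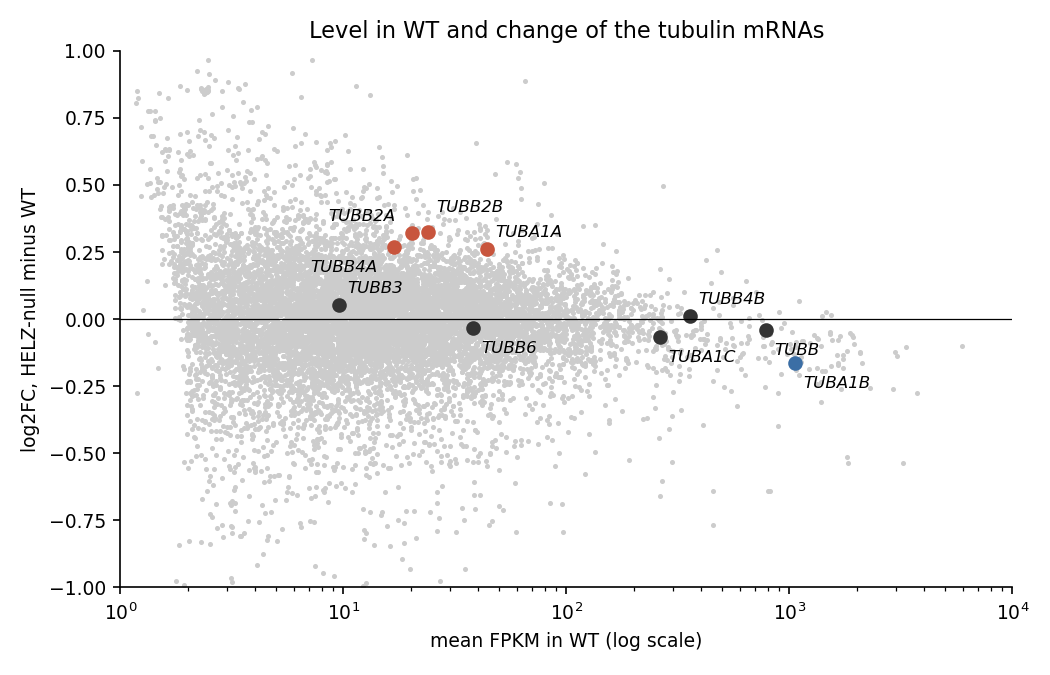
Mean FPKM in WT (horizontal axis, log scale) against the log2FC of HELZ-null relative to WT (vertical axis, drawn from -1 to 1, so that genes beyond are left out). Grey points are all tested genes; large points are the tubulin genes, red where called higher, blue where called lower and black where not called. The 4 genes that rose lie between about the level of TUBB4A and that of TUBA1A, and TUBA1B lies at the right end.

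The changes altered the make-up of each class only slightly. TUBA1B made up 77.5% ± 0.49 of the summed alpha-tubulin FPKM in WT and 75.7% ± 0.077 in HELZ-null (SD, n = 2 libraries). The share of TUBA1A was 3.22% ± 0.12 in WT and 4.20% ± 0.016 in HELZ-null, and that of TUBA1C 19.3% ± 0.37 and 20.1% ± 0.061. TUBB made up 62.8% ± 0.39 of the summed beta-tubulin FPKM in WT and 61.3% ± 0.060 in HELZ-null. The 3 beta-tubulin genes that rose took small shares. TUBB2A went from 1.62% ± 0.018 to 2.03% ± 0.0038, TUBB2B from 1.91% ± 0.072 to 2.40% ± 0.018, and TUBB4A from 1.34% ± 0.0069 to 1.62% ± 0.080. The share of TUBB6 was lower in HELZ-null, at 3.05% ± 0.014 in WT and 2.99% ± 0.046 in HELZ-null. Shares within a class add up to a fixed total, so that a lower share of TUBA1B or TUBB raises the sum of the others. The libraries of the 2 groups did not overlap in these shares, but 2 libraries against 2 allow no exact permutation p below 0.33, and the shares were not tested.

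**Figure D4:**
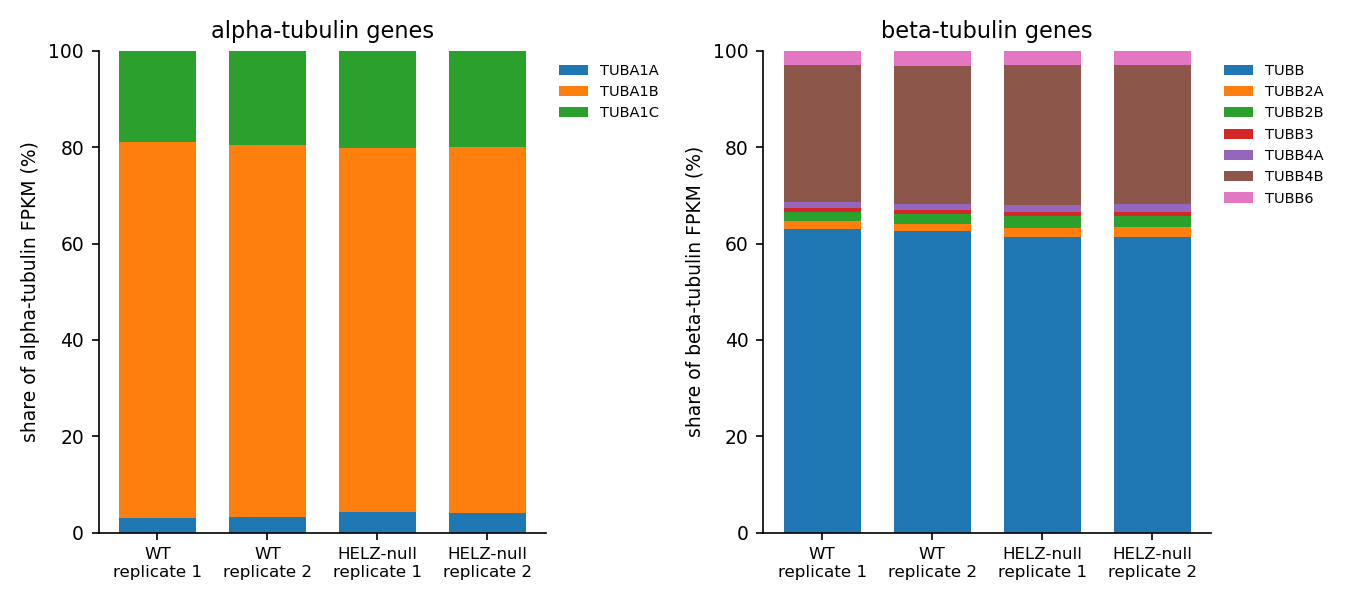
Share of each gene in the summed FPKM of the 3 alpha-tubulin genes (left) and of the 7 beta-tubulin genes (right), in percent, with 1 bar per library. TUBA1B and TUBB fill most of each bar in all 4 libraries, and the genes that rose take up thin bands.

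The summed levels followed the abundant mRNAs and not the genes that rose. The 3 alpha-tubulin genes together stood at 2585 and 2454 CPM in WT and at 2298 and 2339 CPM in HELZ-null, 7.98% lower in the mean. The 7 beta-tubulin genes together stood at 3336 and 3250 CPM in WT and at 3266 and 3247 CPM in HELZ-null. The alpha sums did not overlap between the groups, and the beta sums did. The sum over all 10 genes was 5813 ± 154 CPM for the WT libraries and 5576 ± 15.3 CPM for the HELZ-null libraries (SD, n = 2 libraries). These sums were not tested, for the reason given for the shares.

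Of the 9 other alpha- and beta-tubulin genes, TUBA4A was the only one among the tested genes. TUBA4A (chr2:220114432-220142624, minus strand), an alpha-tubulin known from platelets and neurons, was at 7.61 and 8.73 CPM in WT and at 4.62 and 4.70 CPM in HELZ-null. The 2 HELZ-null libraries were far below both WT libraries, and the log2FC was -0.80 ± 0.12 (SE, n = 2 per group, FDR = 8.58e-07). TUBA4A was at 2.94 and 3.37 FPKM in WT and at 1.78 and 1.82 FPKM in HELZ-null, so that only its WT libraries lay above the FPKM of 2 at which genes were selected, and a selection of this kind favours falls among such low genes. With all genes that had at least 1 count tested, the call was kept. Its exons overlap those of STK16 by 628 bases on the opposite strand, and STK16 had a log2FC of 0.13 (FDR = 0.088). Among the untested genes, TUBA8 stood between 1.88 and 2.38 CPM and TUBB1 between 1.88 and 2.40 CPM across the 4 libraries. TUBA3C, TUBA3D, TUBA3E, TUBAL3 and TUBB8 were at no more than 0.29 CPM, and TUBA4B had no count in any library.

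The tubulins that do not enter the microtubule wall carry no autoregulation signal. TUBG1 was at 213 and 197 CPM in WT and at 228 and 233 CPM in HELZ-null, without overlap. It rose, with a log2FC of 0.17 ± 0.032 (SE, n = 2 per group, FDR = 5.72e-05). TUBG2, the second gamma-tubulin, had a log2FC of 0.22 with a 95% interval of 0.028 to 0.42 (FDR = 0.057) and was not called. The log2FC was -0.040 for the centriolar TUBD1 (95% interval -0.18 to 0.096, FDR = 0.66) and -0.086 for TUBE1 (-0.22 to 0.049, FDR = 0.31). Thus 1 of these 4 genes rose, where 13.9% of all tested genes did, and none fell. Around TUBG1 and TUBG2, 16 of the 20 nearest tested genes had a log2FC above 0, with a median of 0.069, and their part in the rise of TUBG1 was not tested.

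Of the 2 factors that read the signal and pass it on, 1 fell and 1 was not called, where 15.5% of all tested genes were called lower. TTC5, which reads the nascent tubulin chain, was at 30.8 and 32.6 CPM in WT and at 32.5 and 31.9 CPM in HELZ-null, with overlapping groups. Its log2FC was 0.026, with a 95% interval of -0.088 to 0.14 (FDR = 0.74). SCAPER, the adaptor between TTC5 and CCR4-NOT, was at 15.9 and 16.1 CPM in WT and at 13.0 and 12.9 CPM in HELZ-null. The groups did not overlap, and SCAPER fell with a log2FC of -0.30 ± 0.080 (SE, n = 2 per group, FDR = 0.0019). This call did not withstand the omission of any one library, with FDR values between 0.0071 and 0.025, nor DESeq2, with an adjusted p of 0.014, although the log2FC stayed between -0.31 and -0.29 in these fits. It was kept with other scalings and gene filters of edgeR and with the replicate block. SCAPER lies on chromosome 15 among genes that were also lower in HELZ-null. All 20 of its nearest tested genes had a log2FC below 0, with a median of -0.38, and their part in the result was not tested.

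Of the 11 subunits of the CCR4-NOT complex, 1 was called higher, 1 was called lower and 9 were not called, that is 9.09% of the list in each direction, against 13.9% and 15.5% of all tested genes. The median log2FC was 0.046. CNOT4, a ubiquitin ligase associated with the complex, was at 38.2 and 36.7 CPM in WT and at 42.3 and 43.8 CPM in HELZ-null, and rose with a log2FC of 0.20 ± 0.051 (FDR = 0.0014). CNOT10, a subunit of the module bound to the amino-terminal part of CNOT1, was at 72.1 and 74.2 CPM in WT and at 64.0 and 66.1 CPM in HELZ-null, and fell with a log2FC of -0.17 ± 0.041 (FDR = 0.00097). In both cases the groups did not overlap. Neither call was kept by DESeq2, and without WT replicate 2 both were lost while CNOT7 was called higher and CNOT9 lower. The call of CNOT4 was also lost without HELZ-null replicate 2 and that of CNOT10 without HELZ-null replicate 1. Scaling by library size alone gave 3 subunits higher, CNOT3, CNOT4 and CNOT11, and the call of CNOT10 was lost. Both genes lie among neighbours that moved with them, since the median log2FC of the 20 nearest tested genes was 0.23 for CNOT4 and -0.16 for CNOT10. The part of the neighbours in these results was not tested. The scaffold CNOT1 had a log2FC of 0.045 (FDR = 0.20), and the deadenylases CNOT6, CNOT6L, CNOT7 and CNOT8 had log2FC values of 0.031, -0.016, 0.088 and 0.053 and were not called. CNOT9 was at a log2FC of -0.11 and the other subunits CNOT2, CNOT3 and CNOT11 at between 0.046 and 0.11, and none of these was called.

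A newly made tubulin chain is passed from prefoldin to the CCT chaperonin and then to the tubulin folding cofactors, which assemble the dimer. Of the 7 cofactor genes, 1 rose and 3 fell, against 13.9% of all tested genes called higher and 15.5% called lower, and no difference from these shares was tested for this or the other lists. TBCB, which binds alpha-tubulin after its release from CCT, was at 84.1 and 82.7 CPM in WT and at 98.0 and 104 CPM in HELZ-null, and rose with a log2FC of 0.28 ± 0.038 (FDR = 6.81e-08). TBCE, which takes over alpha-tubulin from TBCB, was at 77.3 and 73.1 CPM in WT and at 56.6 and 52.9 CPM in HELZ-null, and fell with a log2FC of -0.46 ± 0.044 (FDR = 1.70e-11). The 2 genes of the alpha-tubulin branch thus moved in opposite directions, each without overlap between the groups. TBCE lies on chromosome 1 in a stretch where 19 of the 20 nearest tested genes had a log2FC below 0, with a median of -0.44, and their part in the result was not tested. TBCA, which binds beta-tubulin, fell with a log2FC of -0.15 (FDR = 0.00012), and TBCC, the factor that triggers release of the dimer, fell with a log2FC of -0.24 (FDR = 0.0033). The call of TBCC was lost with DESeq2, with library size alone and without WT replicate 2 or HELZ-null replicate 2, and that of TBCA without HELZ-null replicate 1. TBCD, TBCEL and ARL2 were not called, at log2FC values of 0.036, 0.060 and -0.0020.

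Of the 6 prefoldin subunits, PFDN4 fell with a log2FC of -0.23 (FDR = 0.00076) and the other 5 were not called. Of the 8 CCT subunits, CCT4 fell with a log2FC of -0.12 (FDR = 0.00054) and the other 7 were not called. Over all tested genes 15.5% were called lower. The call of PFDN4 was lost with DESeq2, with GC offsets and without HELZ-null replicate 1. The call of CCT4 was lost with scaling by library size alone, with GC offsets and without either HELZ-null library, whereas without WT replicate 2 the calls rose to 4 CCT genes, CCT2, CCT4, CCT6A and CCT7. The log2FC of the 8 CCT genes lay between -0.12 and 0.037, with a median of -0.033.

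Stathmins bind free tubulin dimers and hold them away from the polymer. STMN3, a neuronal stathmin, was at 38.4 and 40.7 CPM in WT and at 61.7 and 61.5 CPM in HELZ-null. Both HELZ-null libraries were far above the WT libraries, and STMN3 rose with a log2FC of 0.64 ± 0.047 (SE, n = 2 per group, FDR = 1.54e-14), the strongest rise among the listed tubulin-related genes. STMN1, the general stathmin, was at a log2FC of 0.085 (95% interval 0.026 to 0.14, FDR = 0.017) and was not called. It was called higher with library size alone and with GC offsets. Over all tested genes 13.9% were called higher. STMN2 and STMN4 were at no more than 0.17 CPM in any library.

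Tubulin-modifying enzymes add or remove groups on tubulin after translation. Of the 26 enzymes and partners listed, 25 were found in the count table and 16 were tested, of which 4 rose (25% of the list, against 13.9% of all tested genes), 1 fell (6.25%, against 15.5%) and 11 were not called. VASH1, a carboxypeptidase that removes the last tyrosine of alpha-tubulin, rose with a log2FC of 0.28 (FDR = 4.65e-06). The deglutamylase AGBL5 rose with a log2FC of 0.21 (FDR = 1.75e-06), the deacetylase SIRT2 with 0.19 (FDR = 0.0012) and the polyglutamylase TTLL5 with 0.26 (FDR = 0.00043). TTLL3, a glycylase selected for testing through its WT libraries (2.55 and 2.06 FPKM, against 1.76 and 1.54 FPKM in HELZ-null), was at 11.4 and 9.20 CPM in WT and at 7.89 and 6.88 CPM in HELZ-null and fell with a log2FC of -0.51 ± 0.11 (FDR = 0.00021). Among its 20 nearest tested genes on chromosome 3, 18 had a log2FC below 0, with a median of -0.19, and their part in the result was not tested. The call of TTLL3 was lost without WT replicate 1 and without HELZ-null replicate 2, so that no enzyme was called lower in either case, and its log2FC ranged from -0.64 to -0.33 when single libraries were left out. DESeq2 kept 2 of the 4 increases, those of VASH1 and AGBL5. The call of TTLL5 was also lost without HELZ-null replicate 2, where its log2FC was 0.11, and that of SIRT2 with GC offsets and without WT replicate 1 or either HELZ-null library. TTL, the ligase that restores the tyrosine, was not called, at a log2FC of -0.059 (FDR = 0.16).

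The neighbours of the other tubulin genes were examined in the same way. The median log2FC of the nearest tested genes, with tubulin genes left out, was 0.053 around the alpha-tubulin cluster, where TUBA1A rose and TUBA1B fell, with 13 of 20 neighbours above 0. It was 0.069 around TUBB2A and TUBB2B, below the log2FC of that pair, with 14 of 20 neighbours above 0. TUBB2B shares 174 exonic bases with PSMG4 on the other strand, and PSMG4 had a log2FC of 0.26 (FDR = 0.0057). The reads of these overlapping exons cannot be told apart without knowledge of the strand setting. Around the genes that were not called it was -0.057 for TUBB, 0.020 for TUBB3, -0.093 for TUBB4B and 0.046 for TUBB6, where 15 of 20 neighbours were above 0. The part of the neighbours in the changes of these genes was not tested.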

How the data were processed

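After a Bowtie2 filter against ribosomal RNA and TopHat2 mapping to hg19, the authors deposited unnormalized QuasR counts per gene for 2 WT and 2 HELZ-null libraries. Versions, annotation, use of strand and treatment of reads with several matches are not given in the sources used here. Each deposited count column matched 1 library, and 0 further per-sample columns were found. The authors also deposited gene widths, used here to compute FPKM, and a comparison table of their own, made with edgeR, that holds a log2 fold change, a mean log2 CPM, a p-value and an FDR per gene. From that table only the gene names, 10978 selected by the authors at an FPKM above 2, were taken. How that limit was applied over libraries is not given in the sources used here, and an FPKM above 2 in at least 1 library, computed here, held for 11606 genes.

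Counts were fitted with edgeR 4.0.16 (R 4.3.3; TMM factors 0.987 to 1.01; quasi-likelihood test on genotype; Benjamini-Hochberg adjustment over 10978 genes; called at FDR < 0.005). CPM values use the TMM-scaled library sizes. The biological coefficient of variation was 2.60%. Between the libraries of a group, chi-square per degree of freedom was 4.15 for WT and 3.01 for HELZ-null. If each pair gave 2 counts, these values would be 2.08 and 1.51, where counting error alone gives about 1. In simulated counts for the comparison of HELZ-null with WT over 10978 genes, 73 of 100 genes changed by 0.25 (log2) and 99 of 100 changed by 0.5 were called, none in the wrong direction, and 1 unchanged gene was called. No other genes were changed in the simulation, whereas 3225 were called in the data, so these rates may differ in the real comparison. Intervals and floors cover counting error and the spread between libraries only. Alternatives were DESeq2 1.42.0, other scalings and gene filters, a replicate block, a test against a fold change of 1.2, omission of each library and, chosen after seeing the data, offsets for GC content and counts divided by 2. Positions, sequences, identity and overlaps came from GENCODE v44lift37. Of the tested genes, 61 of 10978 matched no annotated symbol. Named genes were all 10 tubulins, HELZ, TTC5, SCAPER, the other tubulins and, per list, at most 4 called genes in each direction by size of log2FC; uncalled genes of a list were named for their role. The members and lists were chosen with earlier results of these data known. TTLL8 was not analysed here.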

Additional observations from a re-analysis of the deposited data

How the results depend on the processing

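The 5 calls among the 10 tubulin genes (4 up, 1 down) were kept under DESeq2, RLE factors, library size only, 3 other sets of tested genes, GC offsets and counts divided by 2. Against a fold change of at least 1.2 (edgeR glmTreat), 0 tubulin genes were called up and 0 down, with 2 at an unadjusted p under 0.05, TUBB2A and TUBB2B. That test left 535 genes called in all, 217 up and 318 down, and adjusted p values of 1 for TUBA1A, TUBA1B and TUBB4A, 0.44 for TUBB2A and 0.33 for TUBB2B. An FDR under 0.05 called 4877 genes, 2371 of them up, and 2 tubulin genes down instead of 1, by the addition of TUBA1C. Leaving out single libraries gave 1 to 2 tubulin genes down, 4 up, 1027 to 1544 genes up in all, 1180 to 1659 down and 2207 to 3203 called, against 3225 with all libraries. Scaling by library size alone raised the median log2FC of all genes to 0.032 and the share of increases among called genes from 47.3% to 61.5%, with the tubulin calls kept. GC offsets turned the uncalled TUBB3 to -0.0027 and TUBB4B to -0.031, and omission of single libraries moved the uncalled TTC5 between -0.017 (without WT replicate 1) and 0.065. The cause was not tested. With a replicate block, 3518 genes were called against 3225, 4 tubulin genes up and 1 down, and no tubulin call changed. The replicates share only a number, since deviations from the group means correlated at 0.020 across 10762 genes. Depth limits TUBB3 most, with 810 counts in its smallest library, and the spread of 2 libraries per line limits every interval.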

Other observations

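The gamma-tubulin ring complex, which nucleates microtubules, was examined after the values were seen and holds no gene of the lists above other than TUBG1 and TUBG2. TUBGCP2, a ring subunit, was at 180 and 182 CPM in WT and at 200.2 and 199 CPM in HELZ-null and rose with a log2FC of 0.14 ± 0.030 (SE, n = 2 per group, FDR = 0.00021). MZT1, a small protein that activates the ring, was at 159 and 166 CPM in WT and at 199 and 188 CPM in HELZ-null and rose with a log2FC of 0.25 ± 0.033 (FDR = 3.96e-08). TUBGCP4 fell with a log2FC of -0.24 ± 0.046 (FDR = 5.44e-05). TUBGCP3, TUBGCP5, TUBGCP6, MZT2A, MZT2B and NEDD1 were not called, with log2FC values between -0.16 and 0.10. Over all tested genes, 13.9% were called higher and 15.5% lower. The calls of TUBGCP2, MZT1 and TUBGCP4 were kept with the looser filter of edgeR, and the other alternatives are not given here for these genes. The tubulin pseudogene TUBBP5 was at 13.9 and 13.5 CPM in WT and at 13.2 and 11.5 CPM in HELZ-null and was not called (log2FC -0.16, FDR = 0.12).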
